A study of Mus musculus with 6 samples.

Results

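Type 1 conventional dendritic cells (cDC1) are the dendritic cells that take up material from dying cells and present it to CD8 T cells, a process called cross-presentation. They develop under the transcription factors Irf8, Batf3 and Id2 and carry the chemokine receptor Xcr1 and the dead-cell receptor Clec9a. Conventional dendritic cells that enter or leave a tumour are few beside its macrophages, and they mature into Ccr7-positive cells that travel to the lymph node.

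The cells described here were picked by transcripts from single-cell RNA libraries of CD45-positive cells sorted from subcutaneous MC38 tumours, a mouse colon carcinoma line. A cell entered the gate when it had no Cd3e transcript, at least 3 H2-Aa UMIs (unique molecular identifiers, 1 per captured transcript) and at least 2 of the 4 markers Xcr1, Clec9a, Wdfy4 and Cadm1. It also had to lack Ccr7 and to hold fewer than 20 C1qa, C1qb and C1qc UMIs per 10000. The gate held 305 of 39424 kept cells, or 305 of 11240 H2-Aa-rich cells without Cd3e.

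All 6 tumours grew from unmodified MC38 cells and were taken on day 25. The 3 ctr mice are labelled Ctcf wild type in Treg cells. The 3 cko mice are labelled Ctcf knockout in Treg cells, by a tamoxifen-inducible deletion. CTCF is the architectural protein that bounds chromatin loops. The labels used here do not name the Cre driver, the tamoxifen schedule, or the strain or age of the mice. The gated cells are not the cells in which the labels place the deletion, so their Ctcf level does not check it. Ctcf stood at 43.9, 47.3 and 44.7 CPM in the 3 ctr samples (a gene's UMI count scaled to the total of the gate's summed UMIs, with replicates in order throughout). In the 3 cko samples it stood at 44.9, 62.4 and 21.3 CPM. The groups overlapped, with a log2 fold change of -0.15 (SE 0.35, edgeR adjusted p = 0.951).

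Kept cells numbered 5847 to 7276 per library, at a median of 5205 to 8149 UMIs. Pairs of libraries shared 41 to 81 cell barcodes, and no shared barcode was a gate cell in both. The T cells of cko replicates 1 and 3 shared 197 paired receptor clonotypes, and every other pair of libraries shared 3 or fewer. Whether these libraries come from separate animals was not tested, so results are also given with their cells added together. None of the 305 gate cells had a T cell receptor contig, which allows a share of up to 0.984%.

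The gate held 60, 95 and 57 cells in ctr replicates 1 to 3 and 19, 43 and 31 cells in cko replicates 1 to 3. These cells were deeply covered, with medians of 15462 to 21032 UMIs per cell, and their summed libraries held 400670 to 1796410 UMIs. Wdfy4, needed for cross-presentation, was detected in 99.0% of them and Clec9a in 89.2%. Xcr1 was detected in 38.7% and the adhesion molecule Cadm1 in 21.0%. In Cd3e-positive cells, which should lack these transcripts, the shares were 1.80%, 0.376%, 0.816% and 0.470% at a median of 6511 UMIs, against 17375 in the gate. Wdfy4 was less specific among myeloid cells, detected in 21.2% of C1q-high cells, where Clec9a was detected in 4.90%. In the gate for type 2 conventional dendritic cells (cDC2) the shares were 56.2% and 4.77%. The cDC2 gate took H2-Aa-rich cells without Cd3e or Ccr7, below the same C1q limit. They held fewer than 2 of the 4 cDC1 markers and at least 2 of Cd209a, Clec10a, Mgl2 and Flt3. Its Wdfy4 and Clec9a shares are therefore partly set by that rule. Of the cDC1-gate cells 205 had exactly 2 markers, 54 had 3 and 46 had all 4. The most frequent combination was Clec9a with Wdfy4 alone, in 170 cells.

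Just outside the gate stood 1491 cells with exactly 1 marker, mostly Wdfy4, at a median of 10547 UMIs against 16355 for cells with exactly 2. Another 223 cells had 2 or more markers but 20 or more C1q UMIs per 10000, and 24.2% of them held Xcr1. The C1q threshold itself cut through few cells, with 10 gate cells between 10 and 20 per 10000 and 6 excluded cells between 20 and 30. Ccr7 excluded 61 cells that met every other criterion. These are descriptions of how the rule fell.

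Cells with and without an Xcr1 transcript differed widely within the gate. The 118 Xcr1-positive cells held medians of 3 Clec9a and 6 Wdfy4 UMIs, and the 187 Xcr1-negative cells medians of 1 and 2, at median depths of 20720 and 16674 UMIs. Irf8, the factor that sets the cDC1 lineage, stood at 1518 to 2028 CPM in the 6 Xcr1-positive sums and at 395 to 608 CPM in the Xcr1-negative sums. Gcsam, a transcript known from germinal centre B cells, stood at 92.2 to 193 CPM against 0 to 22.2 CPM. The double-stranded RNA sensor Tlr3 stood at 58.7 to 114 CPM against 4.11 to 22.2 CPM. Itgae, the integrin CD103, stood at 96.4 to 288 CPM against 21.5 to 72.1 CPM. Every Xcr1-positive sum lay above every Xcr1-negative sum for these 4 genes. The gate did not use them, and the values are a description of the chosen cells.

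Transcripts of other myeloid cells ran the other way. Cd209a, a lectin of type 2 conventional dendritic cells (cDC2), stood at 0 to 35.0 CPM in Xcr1-positive sums and at 8.32 to 238 CPM in Xcr1-negative sums. Mgl2, also a cDC2 lectin, stood at 62.9 to 417 CPM and 535 to 1344 CPM. The monocyte surface protein gene Ly6c2 stood at 98.3 to 624 CPM and 166 to 2223 CPM, and S100a4 at 38.1 to 574 CPM and 1227 to 2121 CPM. Summed over the 15 cDC2 genes, Xcr1-negative sums held 3499 to 5517 CPM and Xcr1-positive sums 738 to 1579 CPM. The cDC2 gate held 4689 to 6118 CPM, a level partly set by its choice of cells on cDC2 transcripts. At least 2 of the 4 cDC2 gate markers were present in 97 of 187 Xcr1-negative cells (51.9%). In Xcr1-positive cells this was so for 37 of 118 (31.4%). The 4 are Cd209a, Clec10a, Mgl2 and Flt3. Of these Flt3 was higher in Xcr1-positive sums (62.7 to 127 CPM) than in Xcr1-negative sums (11.9 to 45.2 CPM). The part of Flt3 in these shares was not tested.

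**Figure D1:**
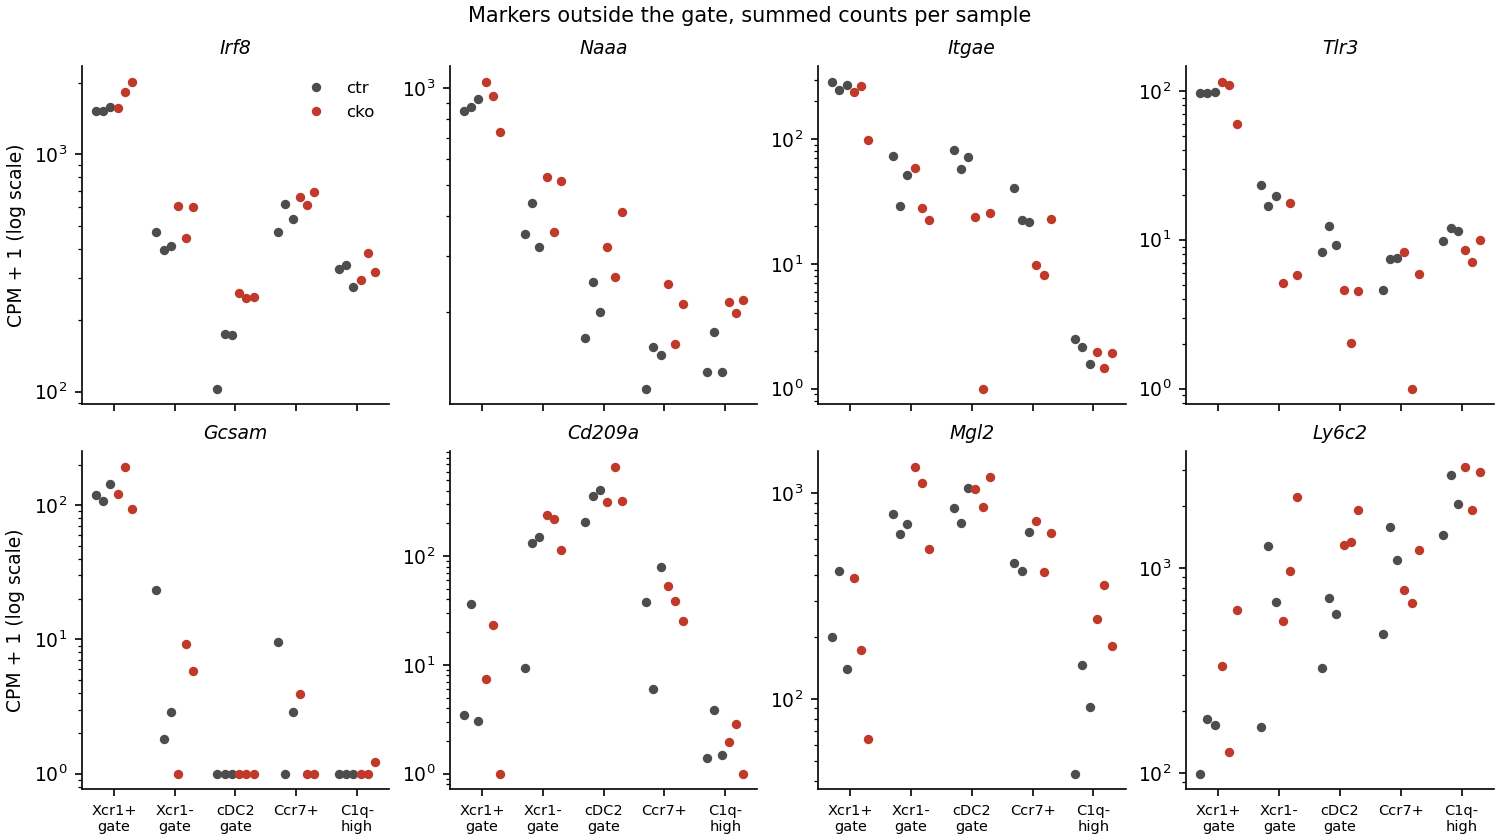
Level of 8 genes that the gate did not use (y axis, CPM + 1, log scale) in the summed counts of each sample, for Xcr1-positive and Xcr1-negative gate cells and 3 comparison populations (x axis). Each point is 1 sample, ctr in grey and cko in red. Irf8, Itgae, Tlr3 and Gcsam are highest in Xcr1-positive gate cells. Cd209a is lower there (0 to 35.0 CPM) than in the cDC2 gate (205 to 666 CPM) in all 6 samples. The cDC2 gate used Cd209a and Mgl2, so their levels in it are partly set by its rule.

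By these markers the label cDC1 holds for the Xcr1-positive cells. The Xcr1-negative cells are named here only by the rule that chose them. The Xcr1-positive share of the gate was 66.7%, 27.4% and 43.9% in ctr and 26.3%, 32.6% and 25.8% in cko. Xcr1 is 1 of the genes the rule used, so these shares are a description. Values in both portions are given for the shares and the called genes. Both portions together also held low levels of other lineages. Summed macrophage markers stood at 565 to 961 CPM in ctr and 532 to 1393 CPM in cko, against 7607 to 20018 CPM in C1q-high cells. Summed transcripts of plasmacytoid dendritic cells stood at 340 CPM in cko replicate 2 and at 36.5 to 136 CPM elsewhere. B cell transcripts stood at 244 CPM in that sample and at 37.4 to 111 CPM elsewhere. T cell transcripts stood at 59.5 CPM or less and neutrophil transcripts at 9.13 CPM or less, with S100a9 and Retnlg at 0. NK cell transcripts stood at 193 CPM in ctr replicate 3, at 97.3 CPM in cko replicate 1 and at 5.67 to 36.7 CPM elsewhere. The macrophage chemokine gene Pf4 was at 0 in every gate sum.

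Against all other H2-Aa-rich cells the gate was led by dendritic and DNA replication genes. Of 1880 genes at 50 CPM or more in every gate sum, the 15 with the largest mean log2 ratio of CPM + 10 are described, without a test because the gate chose the cells. Cd24a, a surface sialoprotein of cDC1, stood at 241 to 420 CPM against 23.9 to 157 CPM in the other cells pooled. In cko replicate 2 the H2-Aa-rich cells outside both gates, without Ccr7 and below the C1q limit, held 240 CPM of Cd24a. The cDC1 gate of that sample held 241 CPM. The inhibitory receptor gene Btla stood at 60.8 to 118 CPM against 5.32 to 12.9 CPM. The lysosomal enzyme gene Ppt1 stood at 203 to 525 CPM against 70.1 to 111 CPM, and Naaa, another lysosomal hydrolase of cDC1, at 542 to 731 CPM against 136 to 246 CPM. The cystatin gene Cst3 stood at 17866 to 26589 CPM against 4167 to 6776 CPM. Among dendritic cells it stood at 6726 to 15484 CPM in the cDC2 gate and 10935 to 17794 CPM in Ccr7-positive cells. Ckb, Tnni2, Qpct, Sept6 and Plet1 were also among the 15. In the cDC2 gate, the most similar population, Plet1 stood at 182, 154 and 156 CPM in ctr, above the gate's 133, 135 and 132 CPM, and Qpct at 182 to 388 CPM against 225 to 519 CPM in the gate. The 15 held 5 genes of DNA replication and the cell cycle: Pclaf, Dut, Mcm7, Cks1b and Mcm3. Ckb stood at 580 to 1231 CPM in the cDC1 gate and 224 to 764 CPM in the cDC2 gate, and Pclaf at 114 to 237 and 0 to 126 CPM. Mcm7 and Cks1b also overlapped between these gates. Of the 15, those other than Ckb, Pclaf, Mcm7, Cks1b, Plet1 and Qpct did not overlap.

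Gate cells made up a smaller share of the tumours' CD45-positive cells in every cko sample than in any ctr sample. The share of kept cells was 0.936%, 1.62% and 0.783% in ctr replicates 1 to 3 and 0.278%, 0.702% and 0.447% in cko replicates 1 to 3. The means were 1.11% ± 0.448 and 0.476% ± 0.213 (SD, n = 3 each), a 2.34-fold difference with an exact two-sided permutation p = 0.1. With 3 samples against 3 no smaller p is possible. Without ctr replicate 2, the highest sample, the difference in means went from -0.639 to -0.384 percentage points. With cko replicates 1 and 3 added together it was -0.582 points.

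Taken alone, Xcr1-positive cells also made up a smaller share in every cko sample. Their share was 0.624%, 0.445% and 0.344% in ctr and 0.0732%, 0.228% and 0.115% in cko, 3.39-fold lower on average (exact permutation p = 0.1). The cko values rest on 5, 14 and 8 cells. The 95% Wilson interval of the largest cko share ran from 0.136% to 0.383%, and that of the smallest ctr share from 0.233% to 0.507%. Those intervals cover counting error only. Xcr1-negative shares overlapped, at 0.312%, 1.18% and 0.440% in ctr and 0.205%, 0.473% and 0.332% in cko (exact permutation p = 0.5). The difference between the portions was not tested.

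**Figure D2:**
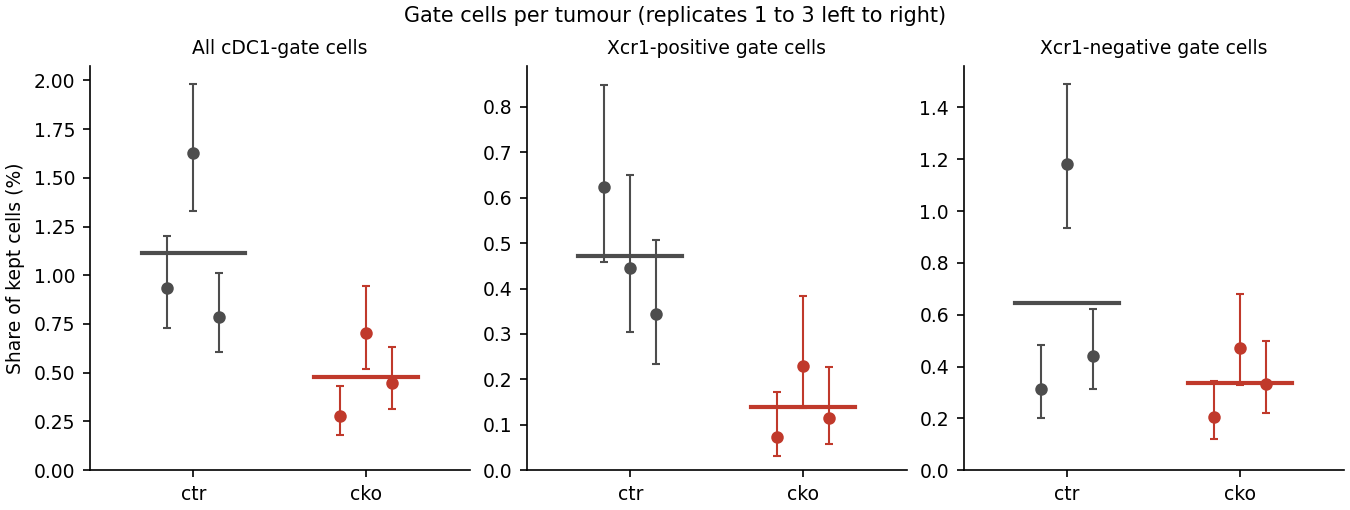
Share of kept cells (y axis, %) in each ctr and cko sample for all gate cells, Xcr1-positive gate cells and Xcr1-negative gate cells. Points are samples with 95% Wilson intervals and bars are group means. The ctr and cko points separate in the first and middle panels and overlap in the right one.

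Gate entry needs transcripts to be seen, and the median depth of kept cells was 6303 to 8149 UMIs in ctr and 5205 to 6433 in cko. After thinning each cell to 3000 UMIs the gate still held 0.626%, 0.345% and 0.334% of deep enough cells in ctr and 0.188%, 0.195% and 0.145% in cko (exact permutation p = 0.1). As a share of H2-Aa-rich cells the gate stood at 3.29%, 3.43% and 2.49% in ctr and 1.19%, 3.75% and 1.91% in cko. These overlapped, at means of 3.07% ± 0.506 and 2.28% ± 1.32 (exact permutation p = 0.4). Shares of a sorted population are relative, so fewer gate cells and more of other cells cannot be told apart. C1q-high cells stood at 18.1% ± 4.75 of kept cells in ctr and 6.15% ± 1.88 in cko, and cDC2-gate cells at 2.64% ± 0.725 and 1.45% ± 0.235 (exact permutation p = 0.1 for both).

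Beside the Ccr7-positive cells, the mature stage of dendritic cells, the gate was smaller in cko. There were 0.561, 0.950 and 0.620 gate cells per Ccr7-positive cell in ctr and 0.154, 0.301 and 0.267 in cko. The groups did not overlap, and the mean ratio was 2.95-fold lower in cko (exact permutation p = 0.1). The Ccr7-positive cells were not filtered on C1q. Their summed macrophage markers stood at 4283, 2976 and 3864 CPM in ctr and 1725, 1503 and 1698 CPM in cko, and the part of this in the ratio was not tested. Per cDC2-gate cell the ratios were 0.432, 0.468 and 0.345 in ctr and 0.162, 0.506 and 0.356 in cko, which overlapped (exact permutation p = 0.7). The smallest p over all share and ratio comparisons was 0.1, so none could pass 0.05 after adjustment.

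Many gate cells carried transcripts of dividing cells. At least 2 of the 8 proliferation transcripts (Mki67, Top2a, Birc5, Stmn1, Tyms, Ccna2, Cdk1 and Pclaf) were found in 45.0%, 35.8% and 33.3% of gate cells in ctr. The cko shares were 26.3%, 27.9% and 29.0%, all below the ctr values (exact permutation p = 0.1). After thinning to 3000 UMIs, which left out 1 cell in each group, the means were 21.2% ± 4.80 and 15.8% ± 5.74 and the groups overlapped (exact permutation p = 0.4).

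Among Xcr1-positive cells, at their higher median depth, the shares with proliferation transcripts were 55.0%, 50% and 44.0% in ctr and 40.0%, 50% and 62.5% in cko, with no separation (exact permutation p = 1). Xcr1-negative shares were 25.0%, 30.4% and 25.0% in ctr and 21.4%, 17.2% and 17.4% in cko (exact permutation p = 0.1). The portions were not matched for depth. Summed over the 20 proliferation genes, Xcr1-positive cells held 2105 to 3528 CPM and Xcr1-negative cells 1084 to 3196 CPM, which overlapped. In cDC2-gate cells the share stood at 19.0% ± 5.57 in ctr and 4.54% ± 3.60 in cko (exact permutation p = 0.1). Of the 20 proliferation genes tested in the gate sums, none passed the test, 17 had negative log2 fold changes and the median was -0.40. Mki67 itself stood at 66.7, 79.6 and 30.1 CPM in ctr and 49.9, 115 and 45.6 CPM in cko, which overlapped.

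**Figure D3:**
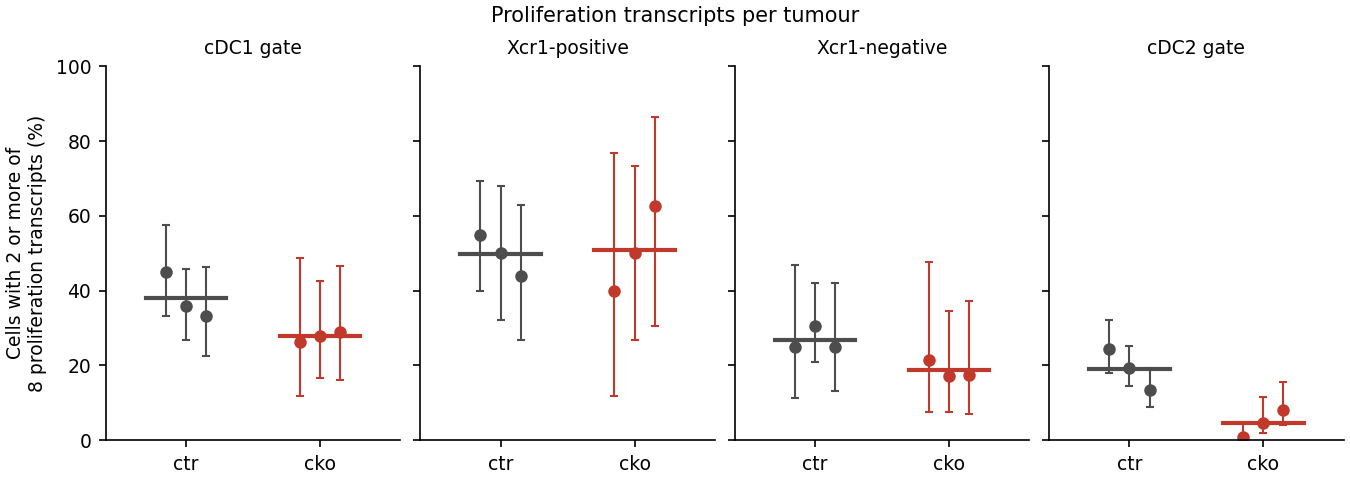
Share of cells with 2 or more of 8 proliferation transcripts (y axis, %) per ctr and cko sample in the cDC1 gate, its Xcr1-positive and Xcr1-negative portions and the cDC2 gate. Points are samples with 95% Wilson intervals and bars are group means. Xcr1-positive cells lie between 40.0% and 62.5% in both groups.

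Gene levels were compared between cko and ctr on UMI counts summed over the gate cells of each sample. The sum of cko replicate 1 rests on 19 cells, under the minimum of 20 set for a sum. The test therefore used the 3 ctr sums and those of cko replicates 2 and 3, and the values of cko replicate 1 are printed beside it. Of 7553 genes tested 10 passed an adjusted p of 0.05 (0.132%), 9 higher in cko (0.119%) and 1 lower (0.0132%). At an unadjusted p under 0.05 there were 577. With all 6 sums 12 of 6642 genes passed (0.181%), 9 higher (0.136%) and 3 lower (0.0452%), and 6 of them were among the 10. Without ctr replicate 3 a single call remained, Ramp3. With the gate applied to cells thinned to 3000 UMIs, 0 of 3981 genes passed in edgeR's test, with 228 at an unadjusted p under 0.05. Those sums rest on 32, 17 and 19 cells in ctr and on 8 and 8 cells in cko replicates 2 and 3. All but that of ctr replicate 1 are under the minimum of 20.

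The 9 genes higher in cko included a receptor accessory protein, transporters, a protease, lectins and a transcription factor. Ramp3, which pairs with the calcitonin-like receptor to bind adrenomedullin, stood at 12.7, 15.03 and 18.5 CPM in ctr and at 200, 125 and 89.7 CPM in cko. Every cko sum was above every ctr sum, with a log2 fold change of 2.77 (SE 0.24, edgeR adjusted p = 0.00176). Within Xcr1-positive cells Ramp3 was at 0 to 14.8 CPM in ctr and 0 to 16.8 CPM in cko. Within Xcr1-negative cells it was at 15.1 to 41.6 CPM and 131 to 325 CPM, with no overlap. The difference between the portions did not pass its test (edgeR adjusted p = 0.952). Cd3e-positive cells held 33.6, 20.5 and 38.0 CPM of Ramp3 in ctr and 85.3, 32.2 and 81.1 CPM in cko, and the part of free RNA was not tested.

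Slc7a11, the cystine importer that feeds glutathione synthesis, stood at 8.44, 12.2 and 8.75 CPM in ctr and 19.97, 52.5 and 56.3 CPM in cko. Its log2 fold change was 2.38 (SE 0.28, edgeR adjusted p = 0.0115), and the groups did not overlap. In Xcr1-negative cells it stood at 2.77 to 16.7 CPM in ctr and 32.9 to 76.6 CPM in cko, and in Xcr1-positive cells at 1.84 to 10.9 CPM and 0 to 33.5 CPM. Slc4a11, a membrane transporter of the bicarbonate transporter family, rested on 1 to 7 counts per ctr sum and 11 to 22 per cko sum. Its log2 fold change was 3.61 (SE 0.55, edgeR adjusted p = 0.0339). It stood at 1.87 to 4.78 CPM and 33.1 to 47.8 CPM in Xcr1-negative cells of ctr and cko, and at 8.38 CPM or less in every Xcr1-positive sum. Mmp19, a matrix metalloproteinase gene, stood at 5.07, 1.11 and 2.92 CPM in ctr and 9.98, 34.0 and 28.9 CPM in cko (log2 fold change 3.403, edgeR adjusted p = 0.0301). In Xcr1-positive cells Mmp19 was at 0 in 4 of 6 sums, and in Xcr1-negative cells at 1.59 to 5.62 CPM in ctr and 16.4 to 49.7 CPM in cko.

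Both lectin genes encode C-type receptors of myeloid cells. Clec4n, the Dectin-2 gene that recognises fungal mannans, stood at 75.1, 86.3 and 76.8 CPM in ctr and 145, 181 and 307 CPM in cko. Its log2 fold change was 1.58 (SE 0.22, edgeR adjusted p = 0.0274). Clec4a1 stood at 1.69, 7.24 and 5.83 CPM in ctr and 12.5, 35.4 and 42.6 CPM in cko, and its log2 fold change was 2.86 (SE 0.43, edgeR adjusted p = 0.0324). For both genes the 3 cko sums of the whole gate lay above the 3 ctr sums. In Xcr1-positive cells Clec4n stood at 36.4, 57.2 and 24.2 CPM in ctr and 0, 4.50 and 105 CPM in cko, with cko replicates 1 and 2 below every ctr sum. In Xcr1-negative cells Clec4n stood at 98.9 to 164 CPM in ctr and 238 to 423 CPM in cko. Clec4a1 stood at 0 to 5.53 CPM in ctr and 0 to 21.0 CPM in cko in Xcr1-positive cells, and at 2.77 to 11.2 CPM and 20.6 to 54.9 CPM in Xcr1-negative cells. With all 6 sums Clec4n kept its call (edgeR adjusted p = 0.0458) and Clec4a1 missed it (edgeR adjusted p = 0.0581).

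Crem, a cyclic AMP-responsive transcription factor, stood at 21.1, 20.6 and 26.2 CPM in ctr and 67.4, 65.2 and 76.1 CPM in cko. The log2 fold change was 1.61 (SE 0.23, edgeR adjusted p = 0.0274). Crem was higher in cko in both portions of the gate, at 16.2 to 21.8 CPM against 31.5 to 50.8 CPM in Xcr1-positive sums and at 19.4 to 35.6 CPM against 78.1 to 100 CPM in Xcr1-negative sums. The separate fit of Xcr1-positive cells did not call it (edgeR adjusted p = 0.783). Il7r, the interleukin-7 receptor, stood at 8.44, 12.2 and 17.5 CPM in ctr and 17.5, 62.4 and 54.8 CPM in cko. It passed the test (log2 fold change 2.18, edgeR adjusted p = 0.0274), though cko replicate 1 lay at the top of the ctr range, and it was not called with all 6 sums (edgeR adjusted p = 0.0958). It stood at 0 to 11.1 CPM in ctr and 0 to 25.1 CPM in cko in Xcr1-positive cells, and at 12.8 to 33.7 CPM and 28.8 to 89.0 CPM in Xcr1-negative cells. T cells express Il7r, and Cd3e-positive cells held 123 to 170 CPM in ctr and 190 to 201 CPM in cko.

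Plet1 encodes a surface protein of progenitor epithelium and of some dendritic cells. It stood at 133, 135 and 132 CPM in ctr and 819, 337 and 350 CPM in cko, with a log2 fold change of 1.33 (SE 0.14, edgeR adjusted p = 0.00377). With all 6 sums it was not called (edgeR adjusted p = 0.30). The cko replicate 1 sum stood far above the other cko sums. In Xcr1-negative cells it stood at 122, 92.5 and 74.9 CPM in ctr and 904, 422 and 451 CPM in cko. In Xcr1-positive cells it stood at 137, 232 and 194 CPM in ctr and 686, 153 and 172 CPM in cko, so cko replicate 1 alone was above the ctr range. In the fit without cko replicate 1 the fold changes of the portions differed, by -2.53 on the log2 scale (SE 0.34, edgeR adjusted p = 0.00495). Its Xcr1-positive cko sums rest on 14 and 8 cells, under the minimum of 20. In cko replicate 1, outside that fit, Plet1 lay above the ctr range in both portions.

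Spp1, the secreted phosphoprotein osteopontin, was the 1 gene called lower. It stood at 146, 103 and 157 CPM in ctr and 37.4, 35.4 and 38.0 CPM in cko, with no overlap, a log2 fold change of -1.91 (SE 0.25) and an edgeR adjusted p = 0.0195. With all 6 sums the edgeR adjusted p was 0.00524. In Xcr1-positive cells it stood at 75.6 to 127 CPM in ctr and 36.0 to 82.6 CPM in cko, and in Xcr1-negative cells at 115 to 197 CPM and 8.22 to 35.2 CPM. Spp1 is a macrophage product, and it was also at 147, 329 and 211 CPM in the Cd3e-positive cells of ctr and 105, 153 and 89.9 CPM in those of cko. C1q-high cells held 237, 301 and 322 CPM in ctr and 147, 288 and 215 CPM in cko. The part of free RNA in the gate's Spp1 counts was not tested.

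**Figure D4:**
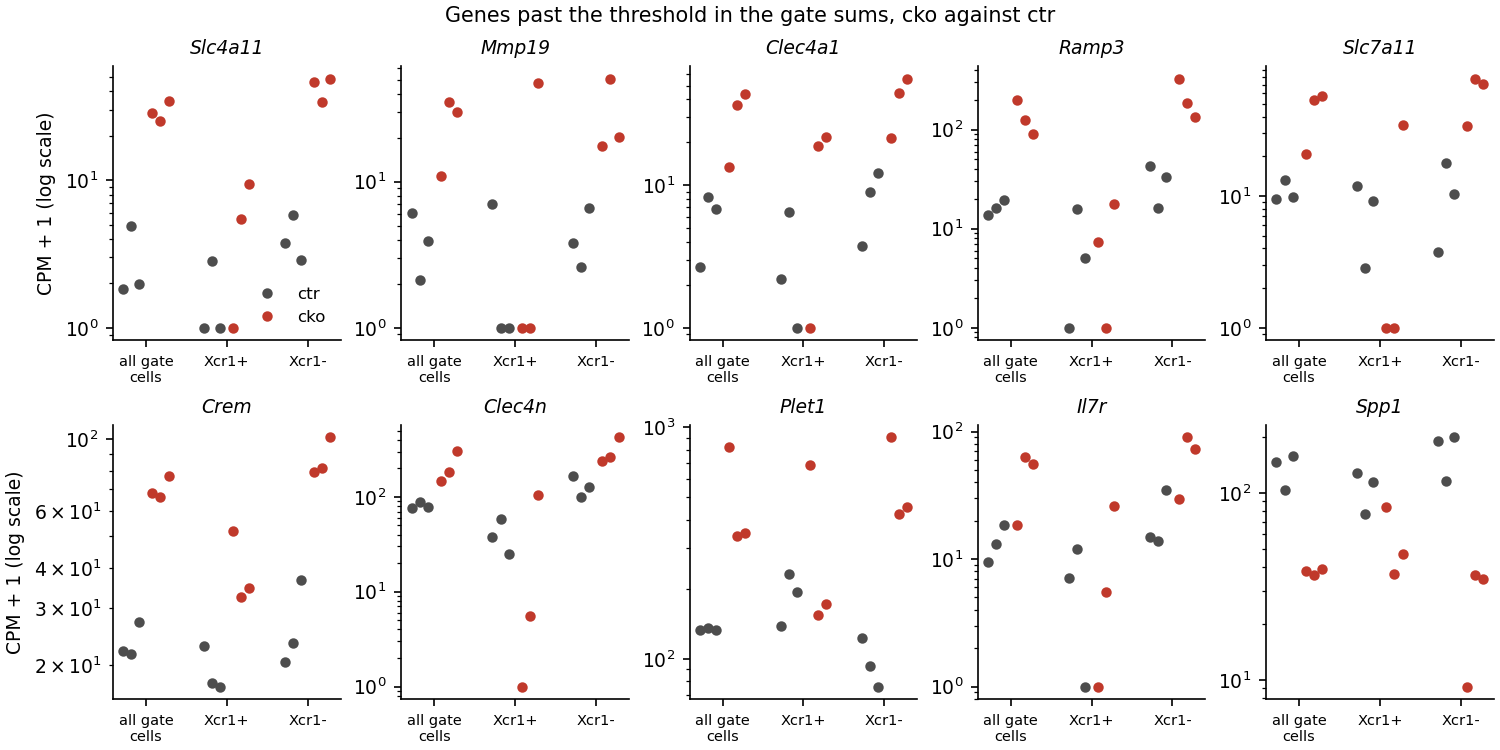
Level of the 10 genes that passed the test (y axis, CPM + 1, log scale) in all gate cells, Xcr1-positive cells and Xcr1-negative cells (x axis). Each point is 1 sample, ctr in grey and cko in red. Ramp3, Slc7a11 and Plet1 separate by group in Xcr1-negative cells and overlap in Xcr1-positive cells.

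The upstream sequences of the called genes Slc7a11, Plet1 and Ramp3 are shown because these genes carry well separated values. Of the 10 called genes 6 matched an entry of the RefSeq promoter table (GRCm38.p6). The 250 bases before each start were searched on both strands for the cyclic AMP response element TGACGTCA, the AP-1 element TGANTCA and the ATF4 element TGATGNAA. Of 32851 promoter windows of that length 1.55% held the first, 6.75% the AP-1 element and 3.45% the ATF4 element. Capitals mark a match.
Slc7a11, chr3:50443614-50443863, minus strand: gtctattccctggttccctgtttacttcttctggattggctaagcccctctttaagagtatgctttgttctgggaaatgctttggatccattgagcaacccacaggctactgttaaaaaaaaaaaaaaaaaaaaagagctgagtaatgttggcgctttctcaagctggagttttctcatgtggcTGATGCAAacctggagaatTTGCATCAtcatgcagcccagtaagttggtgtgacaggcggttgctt
Plet1, chr9:50494275-50494524, plus strand: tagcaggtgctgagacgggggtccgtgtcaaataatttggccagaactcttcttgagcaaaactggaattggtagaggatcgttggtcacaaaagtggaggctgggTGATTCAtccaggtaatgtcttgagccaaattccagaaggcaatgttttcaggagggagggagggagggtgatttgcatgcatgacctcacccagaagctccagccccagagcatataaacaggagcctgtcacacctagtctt
Ramp3, chr11:6658283-6658532, plus strand: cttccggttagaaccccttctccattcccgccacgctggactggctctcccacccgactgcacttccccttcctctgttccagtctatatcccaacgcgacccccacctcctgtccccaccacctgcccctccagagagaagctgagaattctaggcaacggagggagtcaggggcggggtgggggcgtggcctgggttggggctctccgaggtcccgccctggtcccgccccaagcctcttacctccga

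The Slc7a11 window held 2 matches to the ATF4 element and the Plet1 window held 1 match to the AP-1 element. No match was found in the windows of Ramp3, Clec4a1, Il7r and Spp1, which says only that these letters are absent there. Slc7a11 spans chr3:49892526-50443614, Plet1 chr9:50494525-50505482 and Ramp3 chr11:6658521-6677475 in the GENCODE annotation of GRCm38.

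Other antigen-presenting cells of the same tumours gave these genes values of their own, from the same 5 samples and so with shared controls. In cDC2-gate cells, where 204 of 9052 genes passed (2.25%, with 1.46% higher and 0.795% lower), Slc7a11 had a log2 fold change of 3.28 (SE 0.29, edgeR adjusted p = 0.000797) and Clec4n one of 1.27 (SE 0.21, edgeR adjusted p = 0.0205). Clec4a1 was called higher there too, at 1.75 (SE 0.20, edgeR adjusted p = 0.00277). Ramp3 stood at 2.97 there (SE 0.93) and was not called (edgeR adjusted p = 0.231). In Ccr7-positive cells, where 92 of 8214 genes passed (1.12%, with 0.633% higher and 0.487% lower), Slc7a11 stood at 1.99 (SE 0.26, edgeR adjusted p = 0.00672) and Crem at 1.37 (SE 0.18, edgeR adjusted p = 0.00507). In C1q-high cells 1054 of 11097 genes passed (9.5%, with 5.88% higher and 3.61% lower). Ramp3 stood at 3.56 there (SE 0.29, edgeR adjusted p = 0.000837) and Clec4a1 at -0.83 (SE 0.28, edgeR adjusted p = 0.128). Crem, Mmp19 and Clec4n were also called higher there, at 1.68, 2.77 and 1.56 (edgeR adjusted p = 0.000232, 2.31e-05 and 0.0374). Slc4a11 was called higher in cDC2-gate, Ccr7-positive and C1q-high cells, at 2.93, 3.76 and 2.82 (edgeR adjusted p = 0.00585, 0.0140 and 0.00438). So was Il7r, at 1.94, 1.41 and 2.64 (edgeR adjusted p = 0.0124, 0.0116 and 0.0178). Plet1 and Spp1 were called in none of these populations.

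Whether the gate responded differently from cDC2-gate cells was examined with an interaction term, each sample serving as its own block. No gene of 8321 passed (0%) in edgeR's quasi-likelihood test, with 578 at an unadjusted p under 0.05. For Spp1 the difference was -2.09 (SE 1.20, edgeR adjusted p = 0.812), for Ramp3 -0.41 (SE 1.10, edgeR adjusted p = 0.976), and for Clec4a1 1.11 (SE 0.46, edgeR adjusted p = 0.638). The wide errors leave room for sizeable differences in either direction. Against all other H2-Aa-rich cells the cko effect differed for 13 of 11424 genes (0.114%), 11 higher in the gate (0.0963%) and 2 lower (0.0175%). Between Xcr1-positive and Xcr1-negative gate cells it differed for 6 of 6144 (0.0977%), all lower in Xcr1-positive cells (0.0977%). The Xcr1-positive cko sums of that fit rest on 14 and 8 cells, under the minimum of 20.

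Most genes that define cDC1 had negative fold changes in the gate as a whole, and none was called lower. Of 30 identity genes outside the gate 26 were tested, 21 had negative log2 fold changes, 1 passed higher (Plet1) and none lower. Over all 7553 genes tested 0.132% passed and 3729 were negative. The list's median was -0.33, against 0.01 over all genes. Summed over the list, the whole gate held 6614, 4380 and 5165 CPM in ctr and 5743, 4371 and 4648 CPM in cko, which overlapped. The groups overlapped on this sum in both portions too. Medians of the fold changes are not given for the portions. Xcr1-positive cells held 7914, 7160 and 7498 CPM in ctr and 8596, 7892 and 7015 CPM in cko. Xcr1-negative cells held 3642, 3178 and 3002 CPM in ctr and 3897, 2751 and 3300 CPM in cko. The mean Xcr1-positive share of the gate, 46.0% in ctr and 28.2% in cko, moves with the whole-gate values, and its part in them was not tested. Irf8 stood at 1205, 734 and 977 CPM in ctr and 986, 883 and 1118 CPM in cko, with a log2 fold change of 0.00 (SE 0.22). Its partner gene Batf3 stood at 124, 99.1 and 137 CPM in ctr and 170, 109 and 88.2 CPM in cko, which overlapped. Itgae, Tlr3, Naaa and Flt3, the receptor for the growth factor that expands dendritic cells, also overlapped, at log2 fold changes of -1.09, -0.72, -0.18 and -0.74 with edgeR adjusted p of 0.669 or more. Zbtb46, a factor of conventional dendritic cells, stood at 32.1, 39.5 and 50.6 CPM in ctr and 34.9, 55.3 and 45.6 CPM in cko.

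Id2, which restrains E proteins in cDC1 development, was the identity factor furthest from no change. It stood at 1301, 687 and 752 CPM in ctr and 694, 415 and 389 CPM in cko (log2 fold change -1.22, SE 0.31, edgeR adjusted p = 0.445), with cko replicate 1 just inside the ctr range. In Xcr1-negative cells it was called lower, at 838, 518 and 560 CPM in ctr and 214, 234 and 224 CPM in cko (log2 fold change -1.47, SE 0.23, edgeR adjusted p = 0.028). That fit of Xcr1-negative cells alone tested 5308 genes and called 14 (0.264%), 10 higher (0.188%) and 4 lower (0.0754%), of which 7 were among the 10 of the whole gate. The fit of Xcr1-positive cells alone called 0 of 5554 (0%), with 387 at an unadjusted p under 0.05. Its cko sums rest on 14 and 8 cells, under the minimum of 20.

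Antigen presentation genes gave no call. Of 16 tested genes of the class II pathway, which loads peptides for CD4 T cells, none passed the test and 14 were negative, with a median of -0.20. Cd74, the invariant chain, stood at 30464, 32726 and 32460 CPM in ctr and 32111, 27000 and 27545 CPM in cko (log2 fold change -0.26, SE 0.09, edgeR adjusted p = 0.50). H2-Ab1 stood at -0.21 and the class II transactivator Ciita at -0.07. Summed over the class II list, the whole gate overlapped, at 55844 to 60264 CPM in ctr and 48790 to 58971 CPM in cko. Xcr1-positive sums did not overlap, at 52658 to 54057 CPM in ctr and 44657 to 46824 CPM in cko. Those cko sums rest on 5, 14 and 8 cells. Xcr1-negative sums overlapped, at 62446 to 63126 CPM in ctr and 49694 to 67153 CPM in cko. These summed levels were not tested. Of 32 class I and cross-presentation genes none passed, with a median of 0.02. B2m, the class I light chain, stood at -0.08 (SE 0.12), and the peptide transporter Tap1 at -0.02 (SE 0.14).

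Costimulatory molecules and secreted signals for T cells were not called either. Of 18 tested costimulation and checkpoint ligand genes 9 were positive and 9 negative, with a median of -0.00196. Cd86 stood at 189, 200 and 175 CPM in ctr and 232, 204 and 239 CPM in cko, a log2 fold change of 0.20 (SE 0.15). Cd80 stood at 0.62 (SE 0.37), Cd40 at -0.01 (SE 0.41), Cd274, the PD-L1 gene, at 0.16 (SE 0.23), and the checkpoint receptor Havcr2 at -0.04 (SE 0.18). Il12b, the subunit of interleukin-12 that cDC1 are known for, was too low to be tested, at 1.69, 3.90 and 0 CPM in ctr and 14.97, 17.0 and 0 CPM in cko. Il15 stood at 0.49 (SE 0.37, edgeR adjusted p = 0.813).

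No chemokine gene was called. None of 13 tested passed, and the median was 0.03. Cxcl9, which draws Cxcr3-positive T cells, stood at 252, 836 and 383 CPM in ctr and 913, 476 and 552 CPM in cko. Cxcl10 stood at 39.7, 159 and 508 CPM in ctr and 172, 221 and 312 CPM in cko. Ccl5 stood at 49.8, 171 and 109 CPM in ctr and 160, 296 and 260 CPM in cko (log2 fold change 1.28, SE 0.51, edgeR adjusted p = 0.668). Cxcl16 stood at 0.08 (SE 0.40).

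The interferon lists gave no call. Of 30 tested interferon gamma response genes 16 were positive, with a median of 0.01. Irf1, a transcription factor induced by interferon gamma, stood at -0.10 (SE 0.22). Of 30 tested type I interferon genes 24 were negative, with a median of -0.46 and summed levels of 3303 to 6421 CPM in ctr and 3192 to 5731 CPM in cko. Among 19 tested hypoxia and glycolysis genes 14 were positive, none passed and the median was 0.08. At an unadjusted p under 0.05 in edgeR's test 7 were higher in cko and 0 lower, beside 577 of 7553 genes in either direction. All 3 cko sums lay above all 3 ctr sums for 6 of the 19, and below them for 0. The list was not tested as a set. Hif1a, the oxygen-sensing factor, stood at 79.4, 117 and 100 CPM in ctr and 242, 191 and 164 CPM in cko (log2 fold change 0.80, SE 0.18, edgeR adjusted p = 0.241). Its groups did not overlap, as was so for 1006 of the 7553 tested genes (13.3%), 557 of them higher in cko (7.37%) and 449 lower (5.94%).

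**Figure D5:**
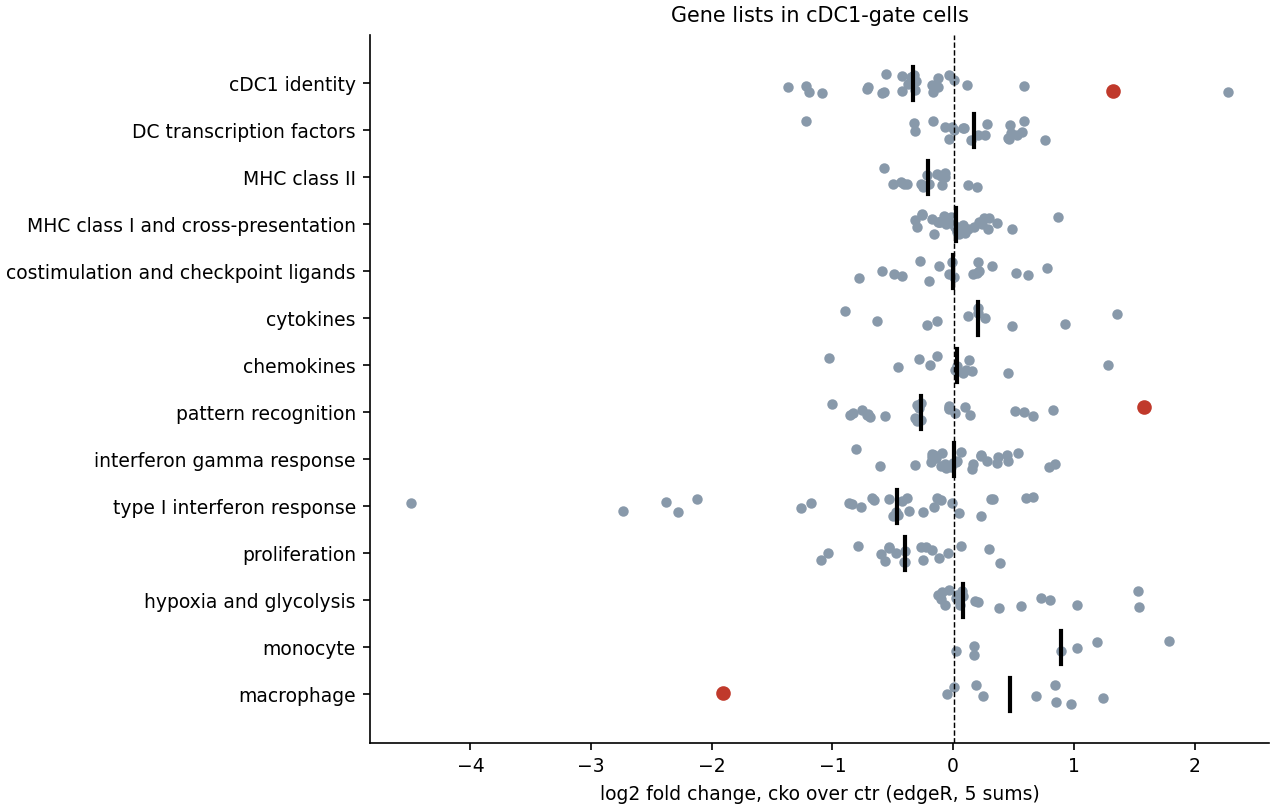
Log2 fold changes cko over ctr in the gate sums (x axis, edgeR on 5 sums) of the tested members of 14 gene lists (y axis). Each point is 1 gene, red where it passed an adjusted p of 0.05, black bars are list medians and the dashed line is the median of all tested genes. Plet1, Clec4n and Spp1 are the 3 red points.

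Monocyte genes had positive fold changes without a call and varied widely between samples. All 7 tested monocyte genes were positive, none passed, and the median was 0.89. Their summed level was 1813, 3549 and 2616 CPM in ctr and 2416, 3017 and 5518 CPM in cko, so cko replicate 3 stood apart. Xcr1-negative cells held 1886, 4353 and 3064 CPM in ctr and 3371, 3879 and 7268 CPM in cko. Xcr1-positive cells held 1781, 1688 and 2134 CPM in ctr and 940, 1143 and 2447 CPM in cko, so the groups overlapped in both portions. The part of these transcripts in the genes called higher was not tested.

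Among genes with negative fold changes that missed the threshold, the smallest p belonged to Slamf9, a receptor of the SLAM family. It stood at 90.3, 142 and 96.2 CPM in ctr and 42.4, 32.6 and 44.1 CPM in cko (log2 fold change -1.56, SE 0.27, edgeR adjusted p = 0.0733). With all 6 sums it was called (edgeR adjusted p = 0.0281). Hspa1b, a heat shock chaperone, stood at 1157, 1136 and 1657 CPM in ctr and 659, 761 and 723 CPM in cko (edgeR adjusted p = 0.173). It too was called with all 6 sums (edgeR adjusted p = 0.0444). Plau, the urokinase gene, stood at 19.4, 28.4 and 42.8 CPM in ctr and 19.97, 5.67 and 4.56 CPM in cko, with overlap. Phf11a and Smpdl3a had log2 fold changes of -1.01 and -1.15 and edgeR adjusted p of 0.0929 and 0.191.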

How the data were processed

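CD45-positive cells of 6 MC38 tumours, 3 ctr and 3 cko biological replicates, were measured by droplet 5′ single-cell RNA sequencing with paired receptor sequencing, per the labels' protocols. The deposited matrices hold UMI counts per gene and barcode, made with Cell Ranger 7.0.0 on GRCm38 per the submitters' processing notes. A barcode was kept from 300 genes and 500 UMIs upward unless more than 10% of its UMIs were mitochondrial. Scrublet's automatic threshold marked 0.353% of barcodes and had not worked, so no doublets were removed, and a fixed-share removal was an alternative. The gate's counts were summed per sample (400670 to 1796410 UMIs) and tested with edgeR 4.0.16 (quasi-likelihood, TMM, filterByExpr, Benjamini-Hochberg 0.05), a script tested on simulated data. A sum needed 20 cells. With 19, cko replicate 1 was left out of the fit. Interaction fits had the sample as a block. For shares an exact permutation test (two-sided) over samples was used, and their Wilson 95% intervals cover counting error only.

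Genes named from the test passed the threshold with all 3 cko values on 1 side of the ctr values (10 a direction at most, or the 5 smallest p). Il7r, which overlapped, was named after its values were seen. Key genes of cDC1 biology were named whatever their result. Members and lists were chosen with earlier results of these data known. The list genes Aldoa, Clec7a, Cxcl11, Cxx1a, Mx1, Mx2 and Sting1 were not analysed here. Alternatives covered DESeq2 1.42.0, scaling, filters, gate stringency, thinning, doublets, cycling cells, pairing and leaving out replicates.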

Additional observations from a re-analysis of the deposited data

Results flagged for a closer look

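Compared with all other H2-Aa-rich cells, 13 of 11424 genes (0.114%) had a different cko effect in the gate by an interaction test, and the 10 named here differed past an edgeR adjusted p of 0.05. The other cells are mixed, and C1q-high cells stood at 18.1% of kept cells in ctr and 6.15% in cko (means), a difference that moves with these values. Their part was not tested.

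Clec4a1 differed by 3.70 on the log2 scale (SE 0.39, edgeR adjusted p = 0.000805), at 101, 100.4 and 143 CPM in the other cells of ctr and 74.3, 44.6 and 80.7 CPM in those of cko. It was also called higher in cDC2-gate cells (log2 fold change 1.75, edgeR adjusted p = 0.00277), and its difference from those cells was not called (1.11, edgeR adjusted p = 0.638). The guanine nucleotide exchange factor gene Rab3il1 differed by 2.65 and Ntpcr by 1.76 (edgeR adjusted p = 0.0192 for both). The lysosomal protease gene Ctsb differed by 0.89 (edgeR adjusted p = 0.0258) and stood at 248, 281 and 329 CPM in the gate of ctr and 210, 240 and 315 CPM in that of cko. In the other cells Ctsb stood at 1173, 1075 and 1293 CPM in ctr and 552, 473 and 701 CPM in cko. Fyb, Grn, Fgd2 and Junb differed by 1.34, 0.92, 1.21 and 0.74 (edgeR adjusted p = 0.0326 for each). The gate sum of cko replicate 1, outside this fit, lay below ctr for Junb, at 594 CPM beside 1907 and 1816 CPM in the other cko sums and 1162, 1475 and 1422 CPM in ctr. For Fyb it lay at 29.9 CPM beside 52.5 and 100.4 CPM and 43.1, 45.1 and 53.5 CPM in ctr. It was also below every ctr sum for Ntpcr (9.98 CPM), Rab3il1 (4.99 CPM), Ctsb (210 CPM), Grn (304 CPM) and Fgd2 (97.3 CPM). Tifab differed by 1.22 (edgeR adjusted p = 0.0486), and the metalloproteinase gene Adam8 by -1.26 (edgeR adjusted p = 0.0357).

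Between Xcr1-positive and Xcr1-negative gate cells, 6 of 6144 genes (0.0977%) had a different cko effect, all more negative in Xcr1-positive cells. The sums of 14 and 8 Xcr1-positive cko cells are small. The decoy receptor gene Il1r2 differed by -3.17 (SE 0.37, edgeR adjusted p = 0.00156), at 136, 88.5 and 154 CPM in Xcr1-positive cells of ctr and 260, 8.999 and 46.1 CPM in those of cko. In Xcr1-negative cells Il1r2 stood at 463, 210 and 493 CPM in ctr and 958, 422 and 903 CPM in cko. The ferritin heavy chain gene Fth1 differed by -1.07 (edgeR adjusted p = 0.00282), Plet1 by -2.53 (edgeR adjusted p = 0.00495) and Ly6a by -1.02 (edgeR adjusted p = 0.0183). Wfdc17 differed by -4.42 and Areg by -9.19 (edgeR adjusted p = 0.0211 for both). Areg had no count in Xcr1-positive cko cells, so its fitted value depends on the prior count and is no bound. In Xcr1-positive cells of cko replicates 2 and 3, Wfdc17 rested on 0 and 2 counts and Il1r2 on 2 and 11. The Xcr1-positive Il1r2 sum of cko replicate 1, outside this fit, lay above every ctr sum.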

How the results depend on the processing

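The number of genes called depended strongly on the settings. Against 9 higher and 1 lower, DESeq2 gave 15 and 4, no low-count filter 124 and 84, and at least 1 of 4 markers 31 and 13. A minimum count of 30 gave 4 and 1, and at least 3 of 4 markers gave 2 and 1. Of the 10 called genes 3 were tested with at least 3 of 4 markers, and 0 were called there. Leaving out cycling cells gave 4 and 4, and the gate on thinned cells 0 and 0. The thinned-gate cko sums rest on 8 and 8 cells, and those with at least 3 markers on 11 and 7. Of the alternatives chosen after seeing the data, Xcr1-positive cells gave 0 and 0 and Xcr1-negative cells 10 and 4. Also among these, all 6 sums gave 9 and 3, and all 6 sums with the replicate block 12 and 2. Leaving out replicates gave 1 to 24 higher and 0 to 7 lower. Without ctr replicate 3 there were 1 and 0, without cko replicate 2 there were 17 and 4, and without cko replicate 3 there were 24 and 4, where the lone cko sum is assumed to vary like the others. The cause was not tested.

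Replicate numbers did not pair the samples, with correlations of 0.0538, -0.0152 and 0.0853 between same-numbered sums. The replicate block gave 17 higher and 10 lower. A paired exact sign-flip test of the gate share gave a difference of -0.639 points (p = 0.25). With 3 pairs no smaller p is possible in that test.

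For the comparison with cDC2-gate cells, with 0 and 0 called, no filter gave 39 higher and 40 lower, all other H2-Aa-rich cells 11 and 2, and the Xcr1 portions 6 lower. Leaving out replicates gave 0 to 5 higher and 0 to 4 lower. Plet1 turned to -0.17 with at least 3 of 4 markers (edgeR adjusted p = 0.962), where the cko sums rest on 11 and 7 cells. It turned to -0.29 in Xcr1-positive cells (edgeR adjusted p = 0.842), on 14 and 8 cko cells. The proliferation difference turned to 1.17 points in Xcr1-positive cells. The 10 called genes lost the call in 63 of 195 refits and changed sign in 2. The 32 other named genes passed the threshold in 18 of 687 refits and had another sign in 83. The gate's mean share stayed lower in cko in every alternative run. The groups overlapped where it was taken as a share of H2-Aa-rich cells, and for Xcr1-negative cells alone. Sums of 19 to 95 cells limit what low genes can show.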
